A study of Mus musculus with 10 samples.

Results

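Open chromatin of monocyte-dendritic cell progenitors (MDP) was compared with that of long-term hematopoietic stem cells (LT-HSC), both sorted from bone marrow of wild-type (WT) C57BL/6 mice, with 2 ATAC-seq libraries per group. In ATAC-seq a transposase cuts and tags open DNA, and a peak marks a stretch that was cut often. The sort gate of the MDP was lineage-negative, CD117+, CD115+, Sca-1- and IL-7R-, and that of the LT-HSC was lineage-negative, CD150+, CD117+, Sca-1+, CD48- and CD135-. Peaks of the 4 lists on chromosomes 1 to 19 and X were merged wherever they overlapped by at least 1 bp. This gave 86136 regions, against 114366 when all 10 libraries of the series were merged. A region with a peak in both MDP lists and in neither LT-HSC list was called gained, and one with the reverse pattern was called lost. By this rule 21417 regions (24.9%) were gained in MDP and 5150 (5.98%) were lost. The calls rest on detection, so their counts are descriptions and carry no test. The lists hold no signal per peak, and in sorted populations a site open in fewer cells and a site less open in every cell cannot be told apart.

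The other 6 libraries, which the calls did not use, came from lymphoid-primed multipotent progenitors (LMPP), common dendritic cell progenitors (CDP) and MDP from IRF8-deficient mice (IRF8KO MDP), with 2 libraries each. LMPP were gated as lineage-negative, Sca-1+, CD117+ and CD135+, CDP as lineage-negative, CD115+, CD135+, CD117int, Sca-1- and IL-7R-, and IRF8KO MDP as the WT MDP. The titles name the LMPP so, while their cell type field names short-term hematopoietic stem cells.

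LT-HSC sit at the top of blood formation and can give rise to every blood lineage, including red cells and platelets. MDP lie further down, are restricted to monocyte and dendritic cell fates, and carry CD115, the receptor for macrophage colony-stimulating factor. Several families of transcription factors guide this path. PU.1 (gene Spi1) and the C/EBP factors drive myeloid genes, IRF8 directs monocyte and dendritic cell fates, and GATA factors act in stem cells, red cell, platelet and mast cell precursors. Enhancers, the distal switches of genes, usually open and close between such stages more than promoters do.

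Promoter sequences under gained and lost regions are shown first, because they show the motifs on which the promoter results below turn. They are RefSeq windows of GRCm38.p6 (mm10), from 250 bases before to 50 after a transcript's start, written 5′ to 3′ on the gene's strand. Capitals mark matches, on either strand, to GAGGAAGT or AGGAAGTG, called the PU.1 type here, or to the shorter word AGATAA, which is called the GATA type. The first 5 windows lie under regions gained in MDP. Mpo (chr11:87793534-87793833, plus strand) encodes myeloperoxidase of granules, Prtn3 (chr10:79879417-79879716, plus strand) proteinase 3 and Elane (chr10:79886062-79886361, plus strand) neutrophil elastase. Tlr9 (chr9:106222348-106222647, plus strand) encodes a sensor of microbial DNA and Ly6c2 (chr15:75111888-75112187, minus strand) a monocyte surface protein. They were chosen among gained promoters with a PU.1 type match after those matches were known.
Mpo: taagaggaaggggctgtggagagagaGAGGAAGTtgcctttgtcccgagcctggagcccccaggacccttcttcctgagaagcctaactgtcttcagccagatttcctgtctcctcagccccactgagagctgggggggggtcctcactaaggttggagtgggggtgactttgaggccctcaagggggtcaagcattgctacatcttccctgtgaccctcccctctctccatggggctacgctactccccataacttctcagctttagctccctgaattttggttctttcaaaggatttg
Prtn3: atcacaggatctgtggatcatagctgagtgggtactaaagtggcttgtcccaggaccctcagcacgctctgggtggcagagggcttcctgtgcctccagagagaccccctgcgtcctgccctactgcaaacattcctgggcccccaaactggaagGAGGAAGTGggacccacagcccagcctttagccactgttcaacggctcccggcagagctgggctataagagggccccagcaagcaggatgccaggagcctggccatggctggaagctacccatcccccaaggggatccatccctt
Elane: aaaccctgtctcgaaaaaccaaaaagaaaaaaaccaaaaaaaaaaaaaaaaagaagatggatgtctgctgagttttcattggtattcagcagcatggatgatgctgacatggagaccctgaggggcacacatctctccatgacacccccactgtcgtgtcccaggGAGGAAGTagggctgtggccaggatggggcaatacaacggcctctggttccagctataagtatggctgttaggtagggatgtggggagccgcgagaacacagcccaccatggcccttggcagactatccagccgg
Tlr9: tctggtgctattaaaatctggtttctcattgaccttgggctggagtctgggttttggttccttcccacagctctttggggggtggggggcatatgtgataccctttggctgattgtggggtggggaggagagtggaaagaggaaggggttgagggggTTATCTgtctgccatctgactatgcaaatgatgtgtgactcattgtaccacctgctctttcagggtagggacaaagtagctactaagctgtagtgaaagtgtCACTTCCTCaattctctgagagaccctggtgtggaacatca
Ly6c2: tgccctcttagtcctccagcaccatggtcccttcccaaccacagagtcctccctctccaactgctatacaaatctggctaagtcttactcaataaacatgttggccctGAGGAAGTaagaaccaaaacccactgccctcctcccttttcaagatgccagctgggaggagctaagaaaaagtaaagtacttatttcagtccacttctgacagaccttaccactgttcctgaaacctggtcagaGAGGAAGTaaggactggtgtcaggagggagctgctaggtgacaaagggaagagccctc
The next 4 windows lie under regions lost in MDP. Ackr1 (chr1:173333454-173333753, minus strand) encodes an atypical chemokine receptor also carried by red cells, Cpa3 (chr3:20242132-20242431, minus strand) the mast cell carboxypeptidase and Tek (chr4:94739039-94739338, plus strand) the angiopoietin receptor of stem cells and endothelium. They were picked for a GATA type match. Gata1 (chrX:7967861-7968160, minus strand), the master factor of red cells and platelets, is shown as a lost promoter whose window holds neither motif.
Ackr1: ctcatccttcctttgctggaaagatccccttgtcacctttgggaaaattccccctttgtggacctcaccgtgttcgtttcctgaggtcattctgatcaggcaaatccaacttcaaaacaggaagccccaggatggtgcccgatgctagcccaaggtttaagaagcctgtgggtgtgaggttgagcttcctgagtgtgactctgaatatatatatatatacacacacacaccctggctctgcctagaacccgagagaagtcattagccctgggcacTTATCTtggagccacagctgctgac
Cpa3: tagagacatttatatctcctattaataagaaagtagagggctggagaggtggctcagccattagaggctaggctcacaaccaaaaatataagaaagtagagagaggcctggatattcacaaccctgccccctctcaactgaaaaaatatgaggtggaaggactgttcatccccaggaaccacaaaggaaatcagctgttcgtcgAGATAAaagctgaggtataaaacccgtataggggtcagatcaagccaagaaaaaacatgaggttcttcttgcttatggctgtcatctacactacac
Tek: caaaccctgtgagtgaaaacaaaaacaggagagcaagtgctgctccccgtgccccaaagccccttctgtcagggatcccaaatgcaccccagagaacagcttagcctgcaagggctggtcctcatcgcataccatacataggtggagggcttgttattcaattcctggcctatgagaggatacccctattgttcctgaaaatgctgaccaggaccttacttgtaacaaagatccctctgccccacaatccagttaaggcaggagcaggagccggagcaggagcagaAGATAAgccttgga
Gata1: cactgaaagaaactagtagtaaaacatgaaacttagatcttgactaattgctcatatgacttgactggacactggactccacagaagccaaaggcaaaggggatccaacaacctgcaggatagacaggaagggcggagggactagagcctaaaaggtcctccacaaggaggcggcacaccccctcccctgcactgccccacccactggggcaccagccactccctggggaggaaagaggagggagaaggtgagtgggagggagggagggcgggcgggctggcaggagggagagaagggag
In Prtn3 the PU.1 type match began 95 bases before the start, in Elane 85 bases before it, and in Mpo 224 bases before it. Ly6c2 held matches beginning 142 and 8 bases before the start. The GATA type match of Cpa3 began 46 bases before the start, whereas those of Ackr1 and Tek began 25 and 36 bases after it.

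The peak lists differed in length between the groups, and LT-HSC replicate 1 stood apart. MDP lists held 62130 and 64515 peaks over all chromosomes, against 31325 and 52147 in LT-HSC. On chromosomes 1 to 19 and X the mean was 63305 ± 1680 in MDP and 41723 ± 14700 in LT-HSC (SD, n = 2 each), with a two-sided exact permutation p of 0.33, the smallest that 2 against 2 libraries allow. Tags within peaks were 51.25% and 53.74% in MDP, against 19.32% and 38.06% in LT-HSC (exact permutation p = 0.33, n = 2 each). Total tags were 5394861 and 5328234 in MDP and 5479825 and 6047916 in LT-HSC, so the shorter LT-HSC lists did not come with fewer tags. The share of regions found in both of 2 libraries among those found in either (the Jaccard index) was 0.765 between the MDP replicates and 0.56 between the LT-HSC replicates. Across the groups it was 0.341 and 0.349 with LT-HSC replicate 1 and 0.431 and 0.434 with LT-HSC replicate 2.

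Because list length bears on what counts as detected, the calls were repeated with every list cut to the length of the shortest, that of LT-HSC replicate 1, on the assumption that rows run from strong to weak peaks. A region called the strongest below is the one of earliest rows. Of 48317 regions merged from these equal lists, 8652 (17.9%) were gained in MDP and 7557 (15.6%) were lost. Lists of equal length largely fix the balance of gains and losses. The smaller excess of gains there therefore says nothing about the excess in whole lists. With whole lists, 12216 (57.0%) of the gained regions lay past that length in every list that held them. Gained regions that stood within that length in both MDP lists, called leading here, numbered 6258 (7.27% of all regions). Leading lost regions, within it in both LT-HSC lists, numbered 3819 (4.43%). A region lost at equal length could still have an MDP peak further down a list. Of 7557 whole-list regions lost within that length, 3819 were also lost with whole lists, and 2649 had a peak in all 4 whole lists. Without LT-HSC replicate 1, 21754 regions were gained and 14978 lost. Without LT-HSC replicate 2, 31155 were gained and 5869 lost. The count of losses thus moved most when the short list of LT-HSC replicate 1 was left out.

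**Figure D1:**
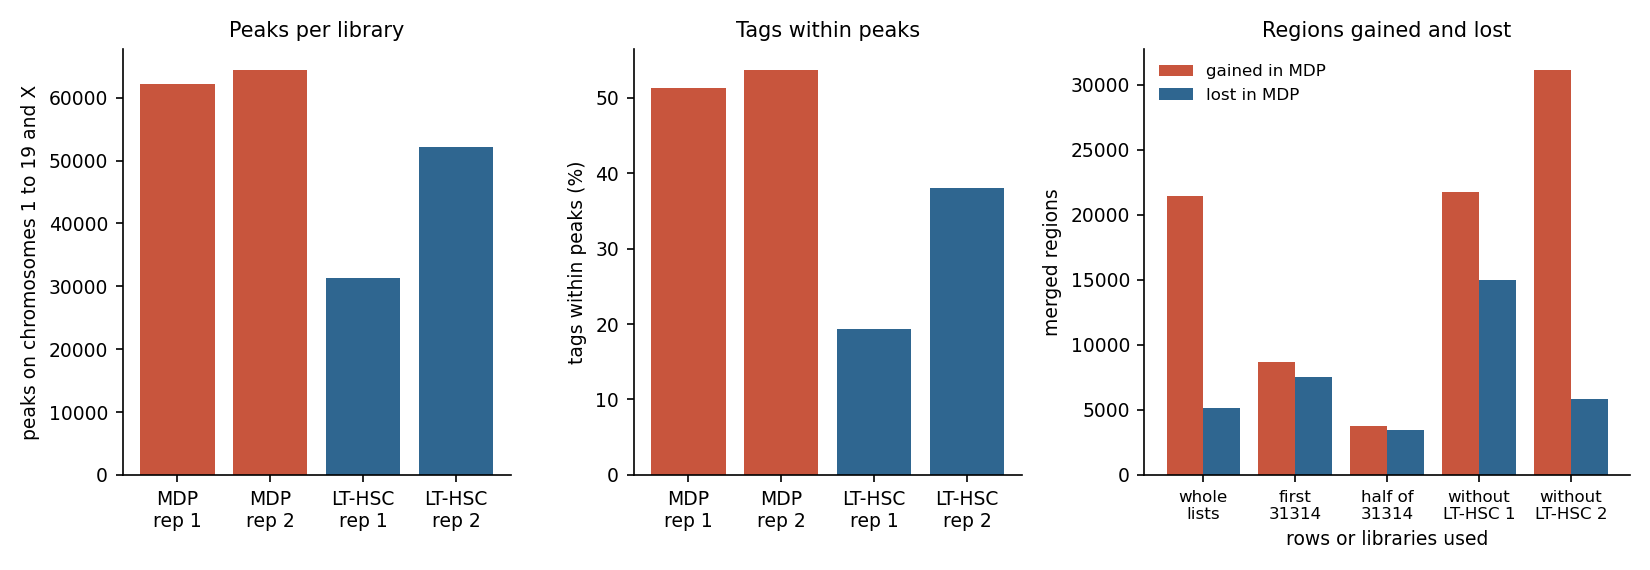
Bars give, from left to right, the peaks on chromosomes 1 to 19 and X per library, the percent of tags within peaks per library, and the regions gained (red) and lost (blue) in MDP with whole lists, with each list cut to the length of the shortest or to 0.5 of that, and without either LT-HSC library. Both MDP libraries stand above both LT-HSC libraries in peaks and in tags within peaks, and gains and losses come to 8652 and 7557 at equal length, against 21417 and 5150 with whole lists.

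Gained and lost regions lay away from gene ends and were narrower than shared ones. Of gained regions 5.87% (95% Wilson interval 5.56 to 6.19) and of lost regions 8.27% (7.55 to 9.06) lay within 1 kb of an end of a protein-coding gene, against 44.6% (43.9 to 45.2) of the 22872 regions found in all 4 libraries and 17.7% of all regions. These intervals cover counting error only, here and below. Median widths were 649 bp for gained, 706.5 bp for lost and 1288.5 bp for shared regions. Gained regions lay inside a gene in 51.1% of cases and lost regions in 54.0%, and 14.8% of lost against 8.77% of gained regions had no protein-coding gene within 100 kb. With lists of equal length these shares near gene ends were 6.13% for gained, 12.1% for lost and 54.1% for shared regions. Over whole libraries, 21.3% and 20.7% of MDP peaks lay within 1 kb of a gene end, against 34.6% and 24.8% of LT-HSC peaks (exact permutation p = 0.33, n = 2 each). At equal length these shares were 33.4% and 33.3% in MDP and 34.6% and 35.6% in LT-HSC.

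The libraries that played no part in the calls place the changes along the path. Regions lost in MDP had a peak in 64.4% and 62.5% of cases in the LMPP lists but in 7.44% and 5.94% in the CDP lists and in 5.79% and 6.7% in the IRF8KO MDP lists, against 52.5% to 68.1% of all regions over these 6 lists. Regions gained in MDP had a peak in 39.9% and 41.2% of cases in LMPP, in 84.5% and 82.0% in CDP, and in 52.4% and 56.0% in IRF8KO MDP. Lost regions were thus seldom detected in either of the progenitors past LMPP, the knockout included, while most gained regions were also detected in CDP. Detection of lost regions in LMPP and of gained regions in IRF8KO MDP was near that of all regions. With equal lists the lost regions were detected in 53.9% and 50.8% of cases in LMPP, in 5.54% and 4.94% in CDP, and in 10.7% and 9.59% in IRF8KO MDP. The gained ones were detected in 30.3% and 31.1% in LMPP, in 78.3% and 78.8% in CDP, and in 57.1% and 58.1% in IRF8KO MDP. Of all regions of equal lists, 57.7% and 57.2% were detected in LMPP, 57.6% and 57.4% in CDP, and 55.4% and 55.5% in IRF8KO MDP.

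**Figure D2:**
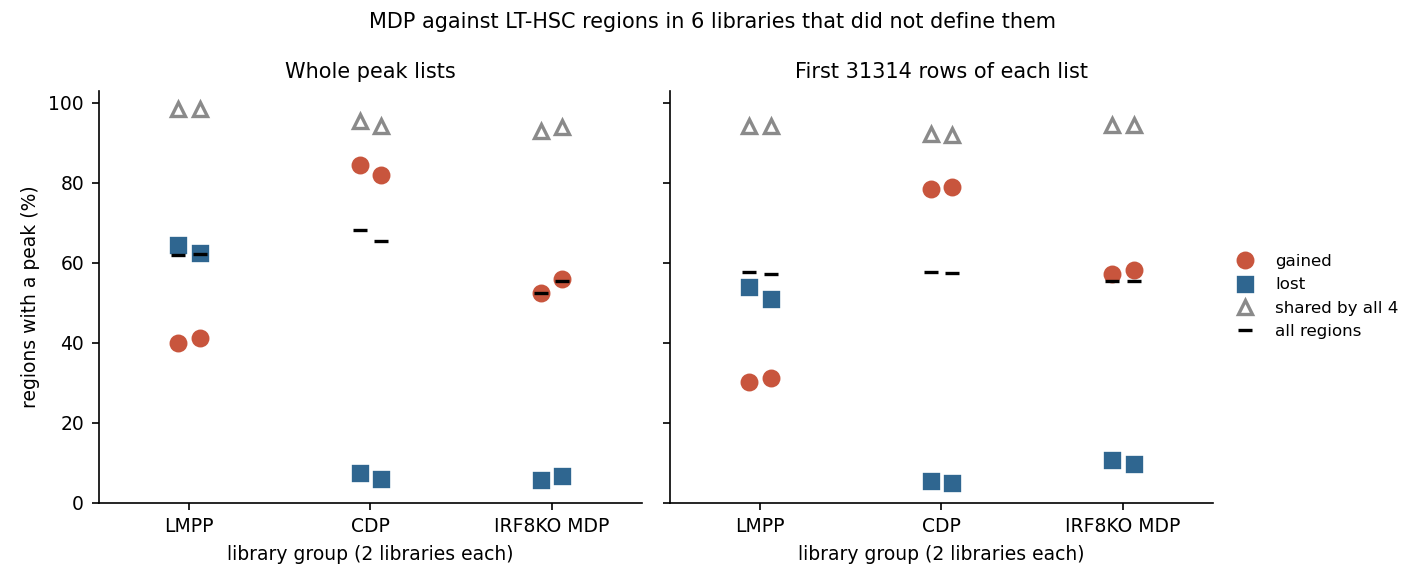
Each point is 1 library and gives the percent of regions gained in MDP (circles), lost in MDP (squares), shared by all 4 libraries (triangles) or of all merged regions (dashes) with a peak in that library, with whole lists on the left and lists of equal length on the right. Lost regions drop to 7.44% or less in CDP with whole lists, after 64.4% and 62.5% in LMPP.

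Of all gained regions 78.9% were in both CDP lists, 47.4% in both IRF8KO MDP lists and 38.9% in neither of the IRF8KO MDP lists. Over all regions these shares were 62.4%, 48.3% and 40.3%, so only the CDP share stood apart. In LMPP, 7161 gained regions (33.4%) were already detected in both lists and 11195 (52.3%) in neither, against 56.8% and 32.6% of all regions. The ones open in both LMPP lists were also found in both IRF8KO MDP lists in 60.6% of cases and in neither in 25.3%. The ones absent from both LMPP lists were found in both IRF8KO MDP lists in 39.0% of cases and in neither in 48.9%. Over all regions the split was wider. Those in both LMPP lists were in both IRF8KO MDP lists in 65.5% of cases, and those in neither LMPP list in 23.8%. Among leading gained regions the same shares in both IRF8KO MDP lists were 73.1% and 53.7%. Row position moved with this, since gained regions within the first 10000 rows of both MDP lists were detected in both LMPP lists in 72.7% of cases and in both IRF8KO MDP lists in 78.2%, and those past row 50000 in 22.4% and 31.9%. Its part in the difference was not tested. The IRF8KO MDP lists were also shorter, with 50711 and 54259 peaks, and the CDP libraries were deeper, with 10166833 and 7985428 tags. Of the lost regions, 2985 (58.0%) were still detected in both LMPP lists and 1599 (31.0%) in neither, near the shares of all regions.

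Regions were assigned to the nearest protein-coding gene within 100 kb, and 16565 genes had at least 1. Genes with more gained than lost regions made up 44.8% of these and genes with more lost than gained 8.49%, with a median net of 0. With equal lists the shares were 24.3% and 20.1%. The 12 gene lists below are read against these shares and against the 24.9% of regions gained and 5.98% lost in all. A gene with more regions has more chances of a net other than 0, which limits the comparison of members. All genes together had 79569 regions at 16565 genes, while the myeloid transcription factor list had 404 at 29.

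At genes of red cells and platelets lost regions outnumbered gained ones. Of 86 regions at 17 of the 18 listed erythroid and megakaryocyte genes, 6 were gained in MDP and 23 lost, and 1 member had a net gain and 12 a net loss, with a median net of -1. The lists held 44 and 47 of these regions in MDP, against 54 and 72 in LT-HSC. With equal lists 1 was gained and 30 were lost of 64, and without LT-HSC replicate 1 the counts were 7 and 34. Of the 23 lost regions 18 were detected in neither LMPP list and 20 in neither CDP list. Among all lost regions 31.0% were in neither LMPP list and 90.8% in neither CDP list.

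Nprl3 led this list, with 5 of 8 regions lost and none gained. Its introns are known to hold the remote enhancers of the neighbouring alpha-globin genes. MDP lists held 3 and 3 of the 8 regions, and LT-HSC lists 7 and 8. The lost ones were centred 1.4 kb before the RefSeq start and 2.4, 11.4, 16.6 and 21.9 kb past it, on chromosome 11, from 32245526 to 32269492. The region 2.4 kb past the start was detected in both LMPP lists, and the other 4 in neither. Gata1 lost the region over its promoter (chromosome X, 7967761 to 7968684) and one centred 3.6 kb before it, both leading and absent from the lists of the other 6 libraries. A region 3.9 kb past the Gata1 start was gained, at rows 44630 and 42489 of the MDP lists. Zfpm1, which encodes the GATA partner FOG-1, lost 4 of 17 regions and gained 2. Alas2, whose product starts heme synthesis in red cell precursors, lost both of its regions with whole lists and neither at equal length, and Gp1ba, a platelet receptor for von Willebrand factor, lost its only one, over the promoter.

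At stem cell genes the net count changed sign with list length, while the shares stood on the same side of those of all regions. Of 323 regions at 27 of 28 listed genes, 51 (15.8%) were gained in MDP and 32 (9.91%) lost, against 24.9% and 5.98% of all regions. At equal list length 17 (9.55%) were gained and 50 (28.1%) lost of 178, against 17.9% and 15.6%. Without LT-HSC replicate 1 the counts were 51 gained and 106 lost, and without LT-HSC replicate 2 they were 95 gained and 38 lost. The lists held 191 and 185 of these regions in MDP, against 115 and 236 in LT-HSC, so the LT-HSC libraries lay on either side of the MDP libraries. Of the leading regions 11 were gained and 28 lost. Among the 32 lost regions 21 were still detected in both LMPP lists and 7 in neither, and 28 were in neither CDP list. Over all lost regions these shares were 58.0%, 31.0% and 90.8%.

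Mecom, whose product EVI1 maintains stem cells, lost 5 of 34 and gained 1, with 12 and 11 in MDP lists against 9 and 30 in LT-HSC. All 5 lost Mecom regions were leading and were detected in both LMPP lists. Meis1, a cofactor of HOX proteins, lost 4 and gained 2 of 29. Hlf, a stem cell transcription factor, lost 1 and gained 1 of 16. Gata2 neither gained nor lost any of 7. Erg, an ETS factor that stem cells need, had 15 of 35 regions gained and none lost, with 31 and 29 in MDP lists against 6 and 16 in LT-HSC. At equal length 4 Erg regions were gained and 3 lost of 15.

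Monocyte and macrophage genes had the largest share of gained regions among the 12 lists, with whole lists and at equal length. Of 182 regions at all 28 listed genes, 84 (46.2%) were gained and 5 (2.75%) lost, 25 members had a net gain and none a net loss, and the median net was 2. MDP lists held 147 and 154 of the regions, against 36 and 73 in LT-HSC. With equal lists 44 were gained and 7 lost of 104, and 35 of the gained regions were leading. Without LT-HSC replicate 1 the counts were 84 gained and 17 lost. Of the 84 gained regions 46 were in neither LMPP list, 75 in both CDP lists and 47 in both IRF8KO MDP lists. Over all gained regions these shares were 52.3%, 78.9% and 47.4%.

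Itgam, which encodes CD11b of the complement receptor of myeloid cells, gained 9 of 14 regions. MDP lists held 11 and 14 of these, against 0 and 2 in LT-HSC. Its strongest gained region lay 11.6 kb before the start, on chromosome 7 from 128050555 to 128051585, at rows 8798 and 5740. Tlr2, a sensor of bacterial lipoproteins, gained 7 of 10, with all 10 found in both MDP lists and 2 and 3 in the LT-HSC lists. Psap, the precursor of lysosomal saposins, gained 6 of 12, including its promoter. F13a1, a coagulation factor subunit made by monocytes, gained 6 of 13.

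Granule genes of neutrophils gained regions although the cells were sorted as monocyte and dendritic cell progenitors. Of 81 regions at 20 of 21 listed genes, 31 (38.3%) were gained and 3 lost, with 61 and 64 in MDP lists and 14 and 41 in LT-HSC lists. At equal list length 17 were gained and 2 lost of 42, and without LT-HSC replicate 1 the counts were 31 and 12. Of the 31 gained regions 20 were also in both IRF8KO MDP lists and 9 in neither, to be read against the shares of all gained regions above. Over all members 15 had a net gain and 1 a net loss, with a median net of 1. Whether the gated cells include neutrophil precursors was not tested.

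The strongest gained region of the whole comparison covered the 3′ part of Mpo. It spanned 11431 bp on chromosome 11, from 87797808 to 87809238, and stood at row 47 in both MDP lists. LT-HSC lists had no peak in it. LMPP and CDP lists had only a short peak near its far end, past the gene, at rows 52838 and 56040 in LMPP and rows 36735 and 48842 in CDP. In IRF8KO MDP long peaks covered the 3′ part too, at rows 18 and 14. Mpo gained 3 of 4 regions, its promoter among them at rows 1758 and 2000. Ctsg, which encodes cathepsin G, gained 4 of 6, with 4 and 6 in MDP lists and none in either LT-HSC list. Ltf, which encodes lactoferrin of late granules, gained 3 of 5, and Csf3r, which encodes the G-CSF receptor of granulocytes, gained 3 of 6.

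Dendritic cell genes followed. Of 147 regions at all 28 listed genes, 62 (42.2%) were gained and 5 lost, 23 members had a net gain and none a net loss, and the median net was 2. MDP lists held 119 and 126, against 30 and 58 in LT-HSC. At equal list length the counts were 29 gained and 10 lost of 78, and without LT-HSC replicate 1 they were 63 and 9. Of the 62 gained regions 57 were in both CDP lists, 26 in both IRF8KO MDP lists and 29 in neither of the IRF8KO MDP lists. The shares over all gained regions were 78.9%, 47.4% and 38.9%.

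Siglech, which encodes a receptor of plasmacytoid dendritic cells, gained 6 of 8 regions, with 8 and 8 in MDP lists against 1 and 2 in LT-HSC. One of these, 16.4 kb past the start on chromosome 7 from 55783939 to 55785224, was already at rows 1350 and 1363 of the LMPP lists and at rows 2423 and 2475 of the MDP lists. Btla, an inhibitory receptor of lymphocytes and dendritic cells, gained 6 of 9, with 8 and 7 in MDP lists and none in LT-HSC. Ccr7, the receptor that guides dendritic cells to lymph nodes, gained 6 of 11, none of them leading. Tlr7, a sensor of single-stranded RNA, gained 4 of 9.

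Myeloid transcription factor genes had 121 gained (30.0%) and 21 lost (5.2%) of 404 regions at all 29 members, close to the shares over all regions. MDP lists held 308 and 308 of the regions, against 129 and 224 in LT-HSC. With whole lists 26 members had a net gain and 1 a net loss, with a median net of 2. At equal list length 42 regions were gained and 31 lost of 221, and 17 members had a net gain and 8 a net loss. Without LT-HSC replicate 1, 124 were gained and 59 lost.

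Irf8 had 26 regions, of which MDP lists held 22 and 18 and LT-HSC lists 1 and 6. Of these 14 were gained and 1, 21.0 kb before the start, was lost. The lost region had a peak in both LMPP and both CDP lists, and in neither IRF8KO MDP list. The strongest gained one (chromosome 8, 120792222 to 120793573) stood at rows 2988 and 2822 of the MDP lists and lay 36.2 kb past the end of the gene, where an enhancer of Irf8 is known in mouse progenitors. Of the 14 gained regions 11 were in neither LMPP list, 6 were in both IRF8KO MDP lists and 4 in neither. Runx1, needed for blood stem cells to form and for myeloid differentiation, gained 15 of 32 and lost none, but only 2 of the gained regions were leading. Runx2 gained 8 of 30. Pparg, a nuclear receptor of macrophages, gained 7 of 12, and 6 of these were in neither IRF8KO MDP list.

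Spi1, which encodes PU.1, gained 2 of 7 regions, Cebpa 2 of 8 and Klf4, a monocyte factor, 3 of 11, shares near the 24.9% of all regions. MDP lists held 7 and 7 of the Spi1 regions, against 3 and 5 in LT-HSC. Zeb2, a zinc finger factor needed for plasmacytoid dendritic cells and other myeloid cells, was the 1 member with a net loss. It lost 7 of 25 regions and gained none, with 8 and 8 in MDP lists and 13 and 24 in LT-HSC. Of the 7 lost, 5 were leading, 3 were still in both LMPP lists and 4 in neither, and none was in an IRF8KO MDP list. The strongest, 53.5 kb before the start on chromosome 2 from 45169202 to 45172739, stood at rows 5204 and 1005 of the LT-HSC lists.

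**Figure D3:**
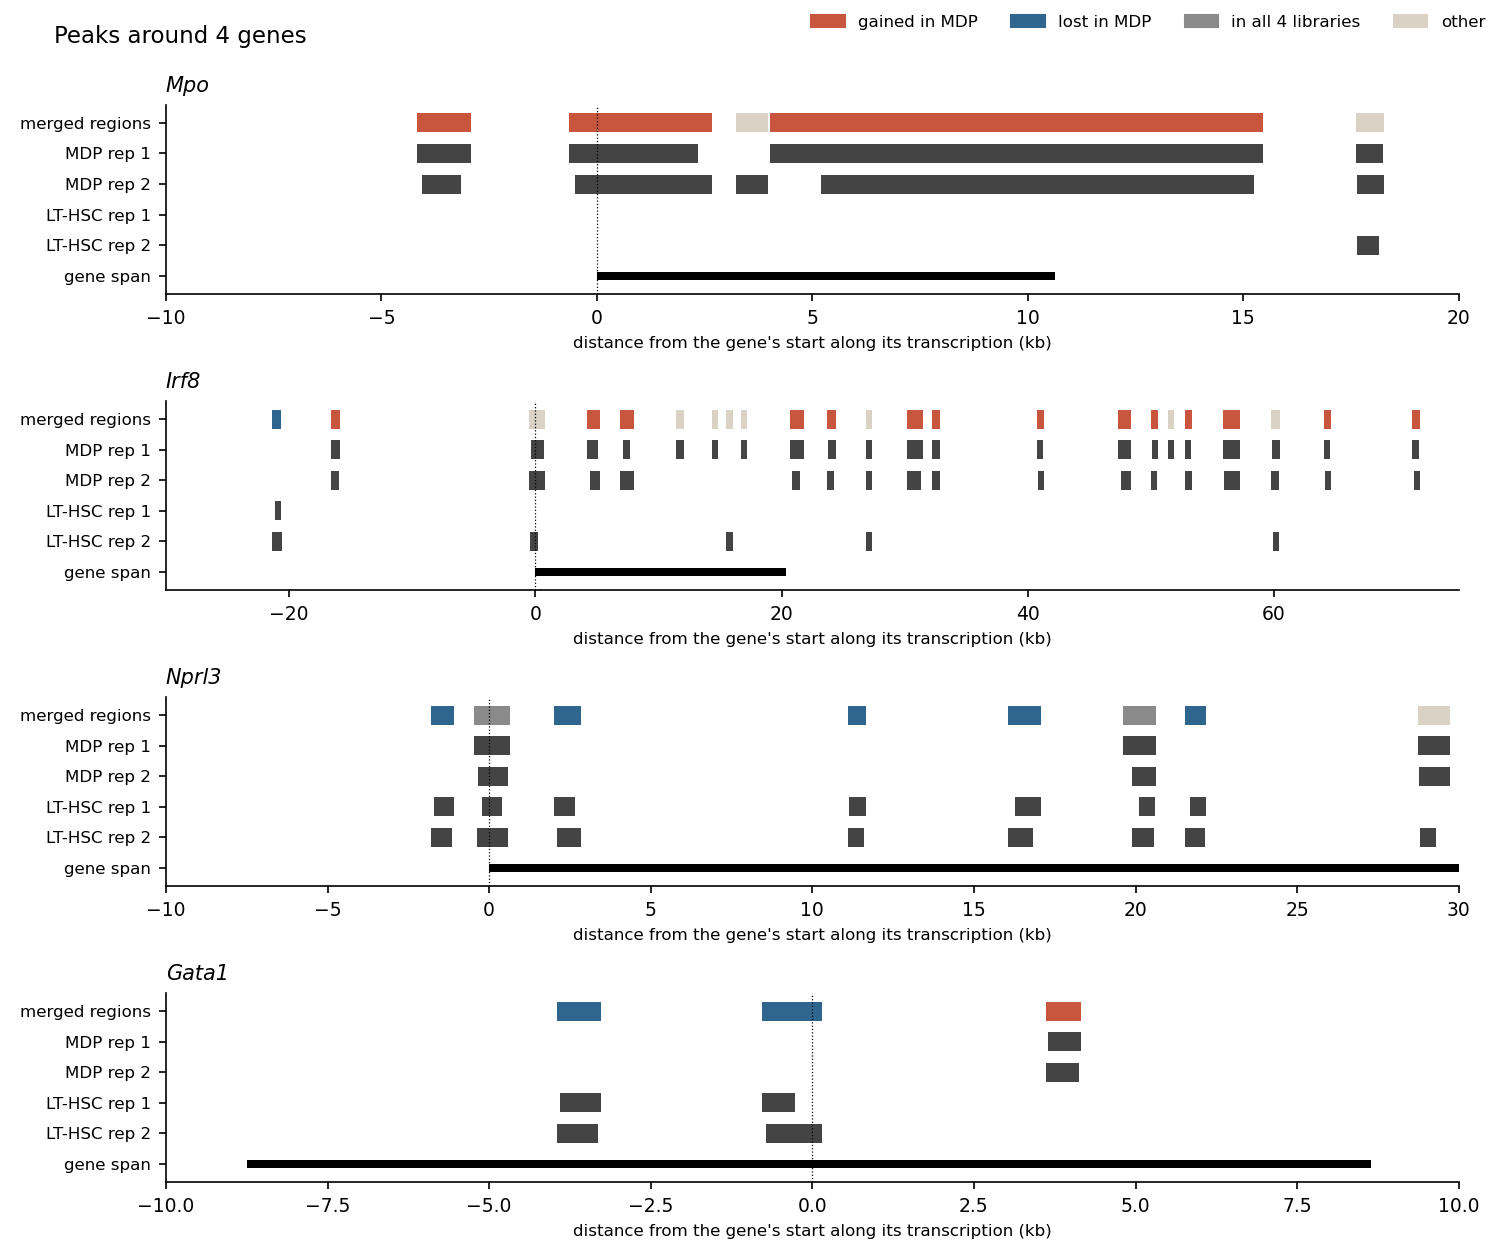
Each panel shows peaks as bars by distance in kb from a start site of Mpo, Irf8, Nprl3 and Gata1 along the direction of transcription, for 2 MDP and 2 LT-HSC libraries, with the merged regions coloured by class above them and the RefSeq gene span below. Mpo has MDP peaks over most of its span and no LT-HSC peak there, and Nprl3 has 5 regions found in LT-HSC alone.

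The genes of the sort markers were set beside the gates, although CD117 was positive in both gates and CD135 was not part of the MDP gate. Slamf1, which encodes CD150 of LT-HSC, lost 1 of 6 regions, 6.3 kb past the start, and gained none. Cd48, on which LT-HSC are negative, gained 4 of 8, with 7 and 5 in MDP lists and 0 and 2 in LT-HSC. Flt3, which encodes CD135, gained 3 of 13, Kit (CD117) 5 of 18 and Csf1r (CD115) 1 of 6. Il7r gained 3 of 4 although IL-7R+ cells were gated out of the MDP. Ly6a (Sca-1) had a single region, found in 1 library of each group. Together 16 (28.6%) of 56 regions at these 7 genes were gained and 1 (1.79%) lost, against 24.9% and 5.98% of all regions. Of the members 5 had a net gain and 1 a net loss, with a median net of 3. Without LT-HSC replicate 2 the counts were 24 and 1, and at equal list length 8 and 3 of 24.

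Markers of other blood and marrow cells were counted in the same way. Lymphoid priming genes had 47 gained and 8 lost of 170 regions (14 of 16 members with a region, median net 2.5), of which Bach2, a repressor of plasma cell fate, accounted for 14 gained and 3 lost. At equal length they had 19 and 13 of 97, and without LT-HSC replicates 1 and 2 in turn they had 47 and 25, and 70 and 11. Mast cell and basophil genes had 13 gained and 3 lost of 42 regions (6 of 9 members, median net 1), led by Mitf with 6 gained and 1 lost of 24 and Hdc, the enzyme that makes histamine, with 4 gained of 9. At equal length they had 6 and 6 of 24, and without the LT-HSC replicates in turn 13 and 7, and 21 and 3. T, NK and B cell genes had 9 gained and none lost of 24 (8 of 14 members, median net 1), with 20 and 21 in MDP lists against 5 and 12 in LT-HSC, and 2 gained of 12 at equal length. No region lay at 6 of the 14, which were the T cell genes Cd3e, Cd3g, Cd8a and Trac, the granzyme gene Gzma and the pre-B cell gene Vpreb1. Since a region goes only to its nearest gene, this does not show closed loci, and the housekeeping genes B2m and Tbp had none either. Without LT-HSC replicate 2 there were 14 gained and none lost.

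Endothelial and stromal genes had 24 gained and 3 lost of 91 (12 of 12 members, median net 2), among them Cxcl12, the chemokine that holds stem cells in the marrow, with 6 gained of 12. All 3 losses were at Col1a2, a collagen chain gene. At equal length 17 were gained and 8 lost of 52. Without the LT-HSC replicates in turn the counts were 25 and 14, and 38 and 4. Housekeeping genes had 10 gained and 1 lost of 61 (14 of 16 members, median net 0), with 49 and 50 in MDP lists against 30 and 46 in LT-HSC. Without the LT-HSC replicates in turn they had 10 and 9, and 19 and 3, and at equal length 3 and 2 of 39. At equal length 42.3% of monocyte regions, 40.5% of neutrophil and granule regions, 37.2% of dendritic regions and 32.7% of endothelial and stromal regions were gained, against 17.9% of all regions. The shares were 25.0% of mast cell regions, 19.6% of lymphoid regions, 16.7% of T, NK and B cell regions and 7.69% of housekeeping regions. For stem cell regions the share was 9.55%. The part of admixed cells in these counts was not tested.

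**Figure D4:**
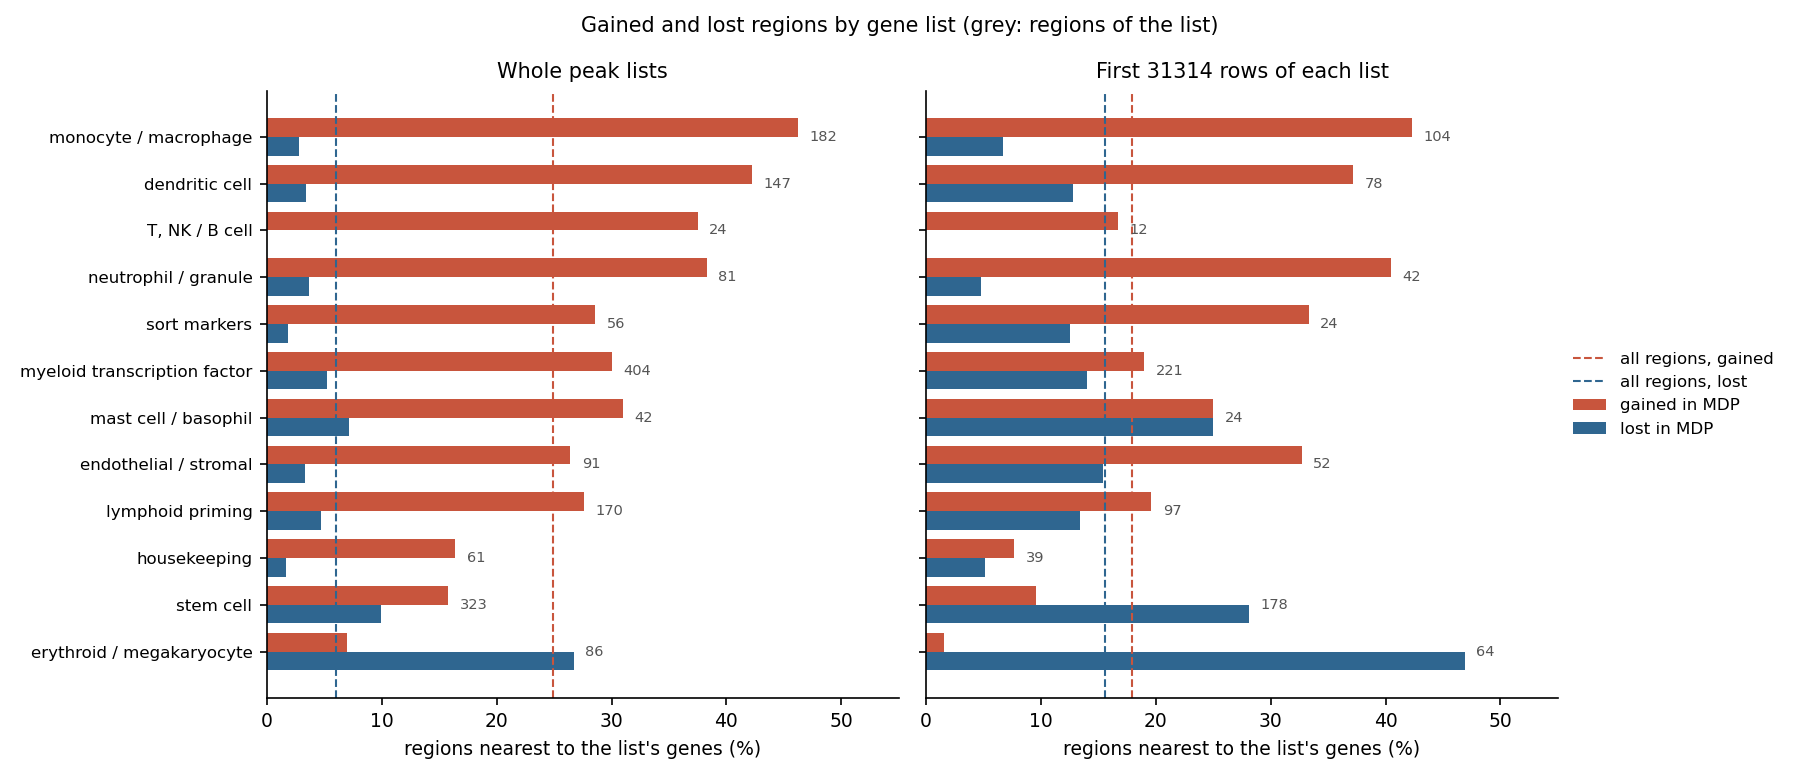
Bars give the percent of the regions of each gene list that were gained (red) or lost (blue) in MDP, with whole lists on the left and lists of equal length on the right, grey numbers the regions of the list, and dashed lines the percent over all regions. Monocyte genes reach 46.2% gained against 24.9% of all regions, and erythroid and megakaryocyte genes 26.7% lost against 5.98% of all regions.

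Genes with the most net gained regions were ones with many regions. Wwox had 22 gained and 2 lost of 58, Foxp1, a forkhead factor of lymphoid and myeloid cells, 23 and 3 of 70, and Pde4d, a phosphodiesterase gene, 21 and 5 of 72. Slc9a9 gained 19 of 44, Itga9 17 of 32, Lpp 18 of 48 and Tgfbr2, a TGF-beta receptor gene, 15 of 26. Runx1 completed the 8. With equal lists, and ties broken by the larger share of regions changed, the leading 8 were Pid1 with 10 gained of 12, Gramd3 with 9 of 12, Hivep2 with 9 of 15, and Atp8b4, Marchf1, Sipa1l2, Tmcc3 and Rabgap1l with 8 each. Lpp tied with most of them in net gain, at 10 gained and 2 lost of 22. Marchf1 encodes a ligase that turns over MHC class II in dendritic cells.

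Genes with the most net lost regions included, besides Zeb2 and Nprl3, Ppp2r2b with 7 of 11 lost, Robo1, an axon guidance receptor gene, with 7 of 20, Nav3, a neuron navigator gene, with 7 of 21, Il1rapl2 with 5 of 5 and Luzp2 with 5 of 7. MDP lists held 2 and 2 of the Robo1 regions, against 9 and 19 in LT-HSC. All 5 Il1rapl2 regions were in both LT-HSC and both LMPP lists and in none of the lists of MDP, CDP and IRF8KO MDP. Nav3, Robo1 and Zeb2 were also among those with the most net losses at equal length, together with Opcml, Rarb, Dlg2 and Rbfox1. With whole lists Dlg2 had no net loss, at 9 gained and 8 lost of 40, and Rarb had 5 gained and 7 lost of 31.

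Behind the Mpo region, the gained regions of best row position lay in Taok3, a kinase gene (chromosome 5, 117158280 to 117160376), at rows 1401 and 1276, and at Hsd11b1, whose product activates glucocorticoids (chromosome 1, 193242110 to 193243582), at rows 1965 and 1559. The Taok3 region was absent from both IRF8KO MDP lists and stood at rows 1779 and 2255 in CDP. The Hsd11b1 region stood at rows 418 and 469 in IRF8KO MDP. The best lost region had no protein-coding gene within 100 kb (chromosome 1, 145138304 to 145139682) and stood at rows 816 and 668 of the LT-HSC lists and 6557 and 8199 of the LMPP lists, and at row 40682 of IRF8KO MDP replicate 2. The next lay over the promoter of Lhcgr, the receptor for luteinizing hormone (chromosome 17, 88789975 to 88792617), at rows 1227 and 1245 in LT-HSC, 15088 and 14944 in LMPP, and in no later list. The median row of gained regions was 37209 in MDP replicate 1 and 37491 in MDP replicate 2, at 59.9% and 58.1% of these lists. For lost regions it was 21306 in LT-HSC replicate 1 and 23231 in LT-HSC replicate 2, at 68.0% and 44.6% of these shorter lists.

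Promoters were a small part of the change, and their letters differed between gains and losses. Of 32619 RefSeq promoter windows, 594 (553 genes) had their start within a gained region, 348 (311 genes) within a lost one and 12295 within a region of all 4 libraries. The median GC content was 53.3% in both the gained and the lost windows, and 62% in the shared ones. PU.1 type letters, as in the Prtn3, Elane and Mpo windows above, were in 14.8% of gained windows (95% Wilson interval 12.2 to 17.9), in 4.89% of lost ones (3.07 to 7.68) and in 5.68% of all windows. GATA type letters, as in Cpa3, Ackr1 and Tek, were in 9.76% of gained windows (7.63 to 12.4), in 21.8% of lost ones (17.8 to 26.5) and in 11.2% of all windows. Windows with no region at all held GATA type letters in 15.4% of cases, at a median GC content of 47.7%. Windows of 1 gene can overlap and share bases, so they are not independent, and the shares carry no test.

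The difference in PU.1 type letters stayed with leading regions, at 17.2% of 221 gained and 5.99% of 284 lost windows, and at equal list length, at 14.6% of 410 and 4.31% of 858. For GATA type letters the share in lost windows was 21.8% for leading regions and 13.3% at equal length, against 10.9% and 8.78% in gained windows. At equal length the intervals, 11.2 to 15.7 for lost and 6.41 to 11.9 for gained windows, overlapped, and 11.2% of all windows held these letters. There the median GC content was 55.8% in lost and 51.7% in gained windows. Without LT-HSC replicate 2 the PU.1 type share of gained windows was 10.4%. C/EBP type letters (TTGCNNAA) were in 15.5% of gained (12.8 to 18.6) and 10.9% of lost windows, with 10.9% over all windows. An ETS-IRF composite (GGAANNGAA) was in 12% of gained and 8.91% of lost windows and an interferon element (GAAANNGAA) in 12.5% and 10.1%, with intervals that overlapped. RUNX type letters (TGTGGTT) were in 7.41% and 7.76%, and AP-1 type letters (TGANTCA) in 9.76% and 12.4% of gained and lost windows. E-box letters (CAGCTG) were in 119 of 594 gained windows (17.0% to 23.4%) and 84 of 348 lost ones (19.9% to 28.9%), and CTCF type letters (CCANNAGNG) in 19.9% of gained and 22.7% of lost windows. All motifs were searched on both strands, and the PU.1 type, ETS-IRF and interferon letters can overlap.

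**Figure D5:**
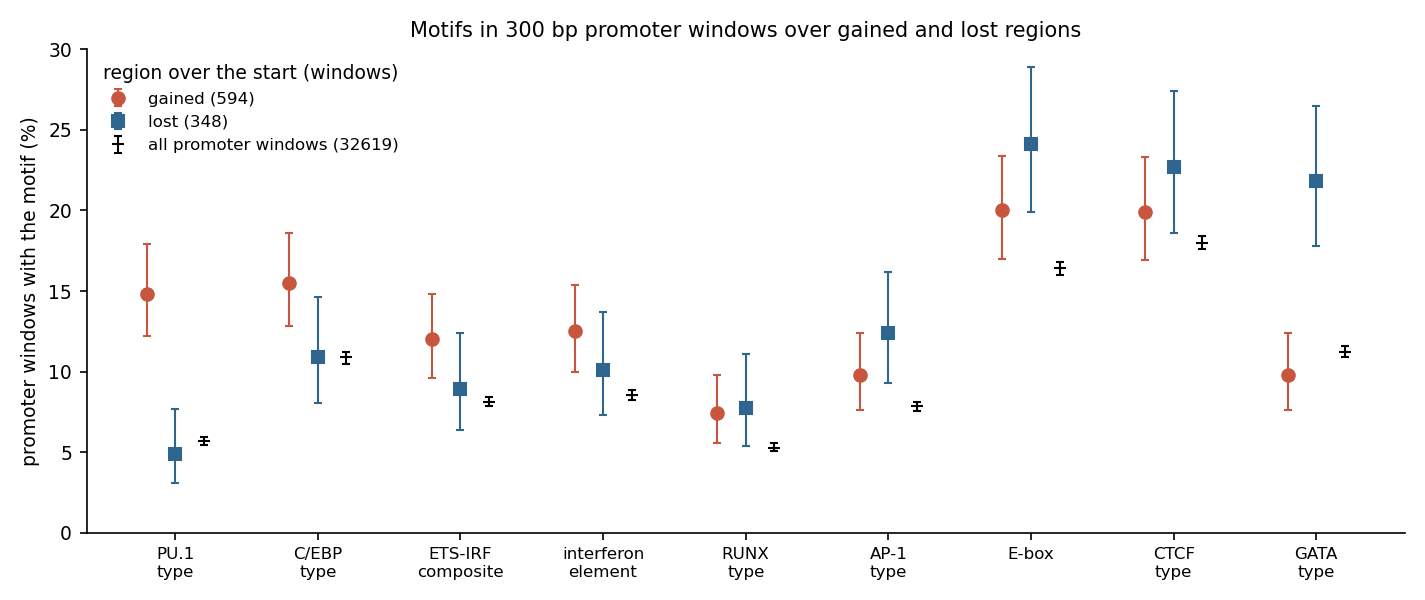
Points give the percent of 300 bp RefSeq promoter windows that hold each motif, for windows whose start lies in a region gained in MDP (red circles), lost in MDP (blue squares) or for all windows (black dashes), and bars are 95% Wilson intervals. PU.1 type letters stand at 14.8% of gained and 4.89% of lost windows, and GATA type letters at 9.76% and 21.8%.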

How the data were processed

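The authors made a peak list for each of 10 ATAC-seq libraries with HOMER, with 500 bp peaks at least 1000 bp apart, an FDR of 0.001 and a 4-fold excess over the local 10 kb, per the file headers. HOMER 4.9, Bowtie 1.1.2 and mm10 come from the submitters' processing notes. The deposited score column is 1 in every row, so only positions and, as an assumed rank, row order were used. Peaks were merged and classed with Python 3.11.15, NumPy 2.4.6, pandas 2.3.3 and SciPy 1.17.1, figures drawn with matplotlib 3.10.9, and the scripts tested on simulated data. Library values were compared by an exact permutation test, whose p-values measure the spread between libraries labelled biological duplicates. Genes and promoter windows came from RefSeq tables of GRCm38.p6, the mm10 assembly. Named genes are the 8 with the most net gained and lost regions, with whole and equal lists, those at the best 3 regions each way, up to 4 members per list with the largest net, the sort markers and a few fixed genes. Members and lists were chosen with earlier results of these data known. Alternatives cut the lists, changed the overlap, width or distance, or left out libraries. Same-numbered libraries share only a number in the labels. A gene that this rule names is not reported here.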

Additional observations from a re-analysis of the deposited data

How the results depend on the processing

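Gained regions numbered 8652 with lists cut to the length of the shortest, 3733 with 0.5 of that length and 6258 within that length in both MDP lists, against 21417. Lost regions numbered 7557, 3429 and 3819, against 5150. Other overlap, width and merging rules gave 20566 to 23409 gained and 5028 to 6206 lost. Leaving out 1 library gave 21754 to 31155 gained and 5869 to 14978 lost, the last without LT-HSC replicate 1, and at equal length 9574 to 10768 gained and 8277 to 11196 lost. At equal length the mean detection of gained regions was 30.7% in LMPP, 78.6% in CDP and 57.6% in IRF8KO MDP, and of lost regions 52.4%, 5.24% and 10.1%. With 1 library left out these were 36.2% to 54.9%, 74.8% to 84.8% and 47.8% to 61.9% for gained regions, and 50.6% to 67.2%, 7.13% to 11.6% and 6.18% to 11.2% for lost ones. The net of stem cell genes, 19 regions, reversed to -33 at equal length and to -55 without LT-HSC replicate 1, came to 57 without LT-HSC replicate 2, and the cause was not tested. GATA type letters were in 13.3% of lost windows at equal length and in 18.5% to 22.3% with 1 library left out, and PU.1 type letters in 10.4% to 14.8% of gained windows. With a replicate block, the differences of 21600 peaks and 23.8 percentage points of tags had an exact sign-flip p of 0.5, the smallest that 2 pairs allow. With 1 library left out they ranged over 11200 to 32000 peaks, 14.4 to 33.2 percentage points of tags and -13.6 to -3.8 points of peaks within 1 kb of a gene end. Leaving out libraries at equal length or for library values, detection and motifs was chosen after seeing the data, as were the motif shares at other list lengths. A wider motif window was not run, since the RefSeq windows hold 300 bases.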

Other observations

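MicroRNA genes, which the gene lists leave out, were looked at within 20 kb of their hairpins after the other values were known, and carry no test. Most had few changes, and the Mir144 and Mir451a cluster and Mir223 are given here because they mark opposite lineages. miR-144 and miR-451a are abundant in maturing red cells, and miR-223 is a microRNA of neutrophils and monocytes. Their mature RefSeq sequences are written 5′ to 3′ with the seed, bases 2 to 8, in capitals.
mmu-miR-451a: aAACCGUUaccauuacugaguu
mmu-miR-144-3p: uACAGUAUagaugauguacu
mmu-miR-223-3p: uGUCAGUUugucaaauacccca
The seeds of the 3 differ. The 6 regions around Mir451a and Mir144 were found 1 and 1 times in the MDP lists, against 2 and 6 times in the LT-HSC lists. Both lost ones, 3.4 and 7.1 kb before the Mir451a hairpin, were leading. Of 7 regions around Mir223, MDP lists held 6 and 5 and LT-HSC lists 1 and 4, and 2 were gained, neither of them leading. That share is near the 24.9% of all regions. Mir146b, Mir21a and Mir29a also had 2 gained and none lost, while Mir142 and Mir155 had no gained or lost region.

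Gains and losses met at some genes. Of the 16565 genes with a region, 8151 had at least 1 gained, 3016 at least 1 lost and 1808 both, and 127 had at least 3 of each. Nfia, a nuclear factor I gene, had 11 gained and 7 lost of 58 regions.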
